A study of Homo sapiens with 4 samples.

Results

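The genes described here are the protein-coding genes whose symbol starts with HIST, which lie in the histone clusters HIST1, HIST2 and HIST3 and at the single locus HIST4. The symbol and the gene type in the deposited FPKM table chose them, a rule that uses no measured value. They number 71 of the 58735 genes in the table, with 100 of its 206601 annotated transcripts. By histone type they are 6 H1, 17 H2A, 18 H2B, 15 H3 and 15 H4 genes, and by cluster 55 HIST1, 12 HIST2, 3 HIST3 and 1 HIST4 genes. The reads came from H1299, an established human non-small-cell lung carcinoma line. One group was exposed for 48 h to methylparaben at 0.5 mM, an antimicrobial ester found in cosmetics, and the other was an ethanol control whose exposure time the labels do not state; each had 2 libraries. All 4 came from Trizol-extracted RNA captured on poly(A) beads and carried through the Illumina TruSeq RNA protocol. Nothing in the labels says whether a group's libraries stem from separate cultures, so the spread behind each p-value is that among these samples and may be technical.

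Histones H2A, H2B, H3 and H4 form the core around which DNA is wound, and H1, the linker histone, binds where DNA enters and leaves it. Most genes of these clusters are replication-dependent: they are transcribed in S phase, and their mRNAs end just past a conserved stem-loop in place of a poly(A) tail. The stem-loop is bound by SLBP, and NPAT, a cyclin E-CDK2 substrate, activates the genes. Some of the genes also give longer or spliced polyadenylated transcripts, described in differentiated or slowly dividing cells. Capture on poly(A) beads selects against the tail-less form.

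The stem-loops are shown first because most HIST reads were counted on annotated transcripts that continue past them. Each line gives a window on GRCh38 read along the gene's strand, taken from the GENCODE release 29 transcript, with the 16 bases of the stem-loop in capitals.
HIST2H2BE: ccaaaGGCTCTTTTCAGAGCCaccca
HIST1H2BG: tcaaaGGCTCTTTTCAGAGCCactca
HIST1H2BD: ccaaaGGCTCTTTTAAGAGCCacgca
HIST1H2AG: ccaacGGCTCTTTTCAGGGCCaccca
HIST1H3G: aaaaaGGCTCTTTTAAGAGCCgccta
HIST1H4I: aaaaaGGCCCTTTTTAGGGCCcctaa
HIST4H4: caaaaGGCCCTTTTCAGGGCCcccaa
The HIST2H2BE window lies at chr1:149886183-149886208 on the minus strand, and 1729 bases of the annotated transcript follow the stem-loop. That of HIST1H2BG is at chr6:26216213-26216238 on the minus strand, with 1059 bases after the stem-loop. The HIST1H2AG window, chr6:27133510-27133535 on the plus strand, has 1761 bases after the stem-loop, and the HIST1H3G window, chr6:26270918-26270943 on the minus strand, has 1518. The HIST1H4I window is at chr6:27139649-27139674 on the plus strand with 212 bases after the stem-loop, and the HIST4H4 window at chr12:14770719-14770744 on the minus strand with 1510 bases after the stem-loop. The HIST1H2BD window, chr6:26158582-26158607 on the plus strand, belongs to transcript HIST1H2BD-202, which ends 39 bases past the stem-loop; the spliced transcript HIST1H2BD-201 does not contain it.

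A stem-loop of this kind was found in a transcript of 32 of the 71 genes. Between the last coding base and the stem-loop lay 25 to 70 bases, the stop codon included. The form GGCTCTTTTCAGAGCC occurred in 17 genes and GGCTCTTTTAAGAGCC in 5, all of H2A, H2B or H3 type, and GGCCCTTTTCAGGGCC in 5 and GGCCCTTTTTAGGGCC in 3, all of H4 type. Of 83129 annotated protein-coding transcripts, 44 (0.053%) held the stem-loop, in 37 genes of which 5 were not HIST genes. A further 33 HIST genes have only annotated transcripts limited to the coding sequence, in which a stem-loop past the stop codon could not be seen.

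Nearly all HIST reads were counted on annotated transcripts that run on past the stem-loop or lack it. Summed over the 4 libraries, the 71 genes held 10171 reads. The 33 transcripts that extend more than 100 bases past the stem-loop held 8402 of these (82.6%). The 19 transcripts in which no stem-loop was found, and which are not limited to coding bases, held 1581 (15.5%). The 13 transcripts that end within 100 bases of the stem-loop held 52 reads (0.511%), and the 35 transcripts limited to coding bases held 136 (1.34%). None of the 17 HIST transcripts without a base of their own held a read, and the forms differ in length, so the reads were also set against the bases found in a single annotated transcript. Per kb of such bases there were 267 reads on transcripts extending past the stem-loop and 203 on those without one, against 12.9 on those ending near it and 11.4 on coding-only models. These densities compare annotated models and say nothing of tail-less mRNA, which the capture selects against.

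**Figure D1:**
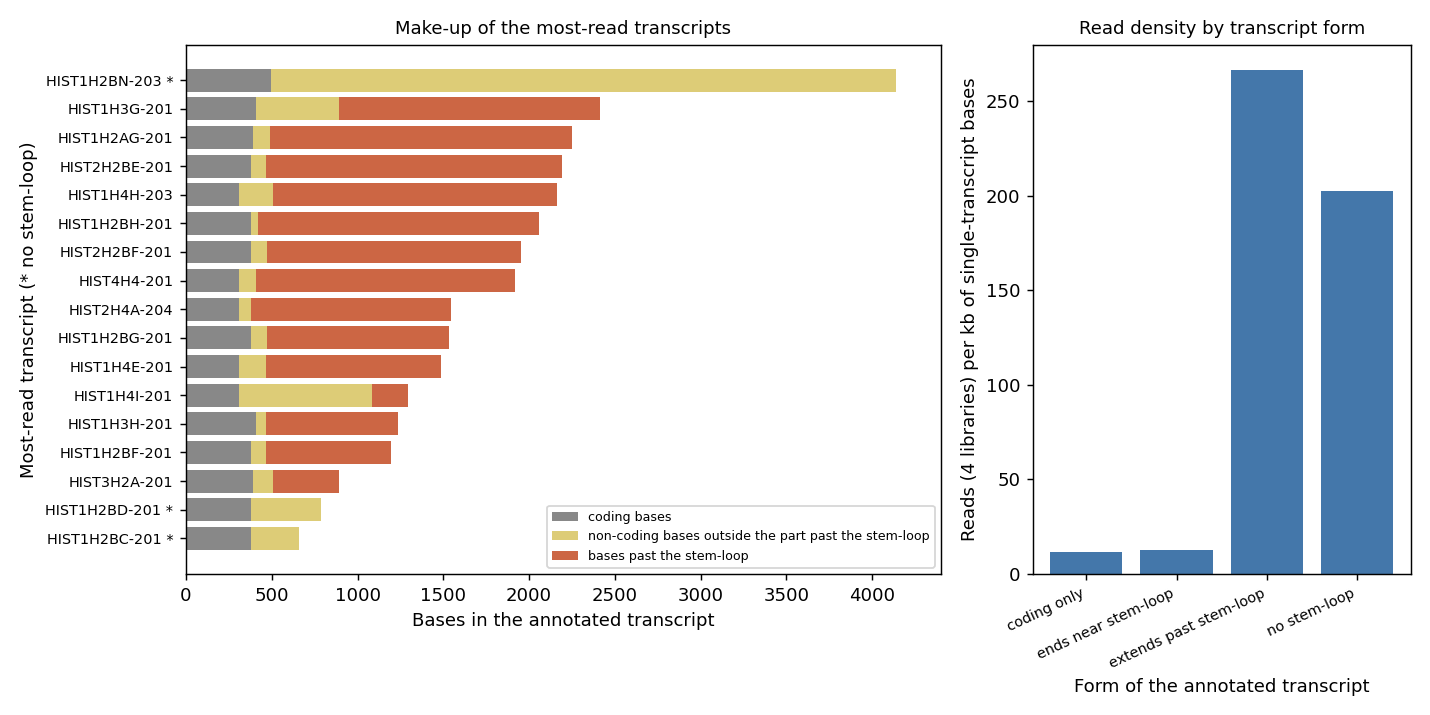
The left panel shows, for the most-read transcript of each of the 17 tested HIST genes, coding bases in grey, other bases in yellow and bases past the stem-loop in red, with an asterisk for no stem-loop; the right panel shows reads over 4 libraries per kb of single-transcript bases for each form. The bars for transcripts extending past or lacking the stem-loop (267 and 203) stand far above those for transcripts ending near it (12.9) and coding-only models (11.4).

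The letters of a polyadenylation signal, AATAAA or ATTAAA on the transcript's strand, stood in the last 50 bases of 31 of the 100 HIST transcripts, and these held 7350 reads (72.3%). Among all annotated protein-coding transcripts the share with these letters was 44.2%. That is a share of transcripts, to be set beside the 31 of 100 and not beside the share of reads. Of the 17 genes that could be tested, 13 had them in the most-read transcript. All 17 had a most-read transcript that extends past the stem-loop or lacks it. Only HIST1H2BD and HIST1H2BN among them have an annotated transcript that ends near the stem-loop and holds single-transcript bases. For the others the annotation fixed this outcome, so it says nothing of the form that was made.

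No count was recorded for 34 of the 71 genes, 11 had 1 to 9 counts over the 4 libraries, and 26 had 10 or more. The 34 were 4 H1, 9 H2A, 5 H2B, 6 H3 and 7 H4 genes of HIST1, 2 H3 genes of HIST2 and 1 H3 gene of HIST3. Of these, 26 have at least 300 bases found in no other annotated transcript, whereas HIST1H2AK and HIST1H3D have none. A count of 0 here describes poly(A)-captured reads as the authors counted them and not the gene's total mRNA.

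Library totals ran from 2068486 to 3760982 counts, and the HIST genes took 0.0917%, 0.103%, 0.0964% and 0.102% of them in ethanol 1, ethanol 2, methylparaben 1 and methylparaben 2. Values below follow this order of libraries, in CPM, which are counts scaled to a common library size by the TMM method. With library size alone as the scale, the median log2 fold change of all genes was -0.08 in place of 0.03. The epithelial keratins KRT8 and KRT18 were read in every library with 14 to 31 and 5 to 27 counts. KRT19, EPCAM and CDH1 and all 5 lung lineage markers (NKX2-1, SFTPB, SFTPC, NAPSA, SCGB1A1) were listed at 0. Such a 0 describes reads as the authors counted them and does not show that a gene was silent. Of 6 blood and stromal markers 4 were at 0 in all libraries, and their summed level was 0.851 and 2.60 CPM with ethanol and 0.544 and 1.57 CPM with methylparaben.

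With methylparaben, 3 H2B genes rose (HIST2H2BE, HIST1H2BD, HIST1H2BG) and 6 genes fell (HIST1H2AG, HIST1H2BC, HIST1H2BH, HIST1H3G, HIST1H3H and HIST4H4). These 9 are 52.9% of the 17 HIST genes that passed the filter on low counts, where 36.9% of all 8055 tested genes passed the same test (edgeR quasi-likelihood test, Benjamini-Hochberg adjusted p under 0.05), 18.5% higher and 18.4% lower. The groups of library values did not overlap in 14 of the 17, against 70.5% of all tested genes. The remaining 54 HIST genes had no test in the main comparison. In these bulk libraries, fewer cells with a transcript and less of it per cell cannot be told apart.

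**Figure D2:**
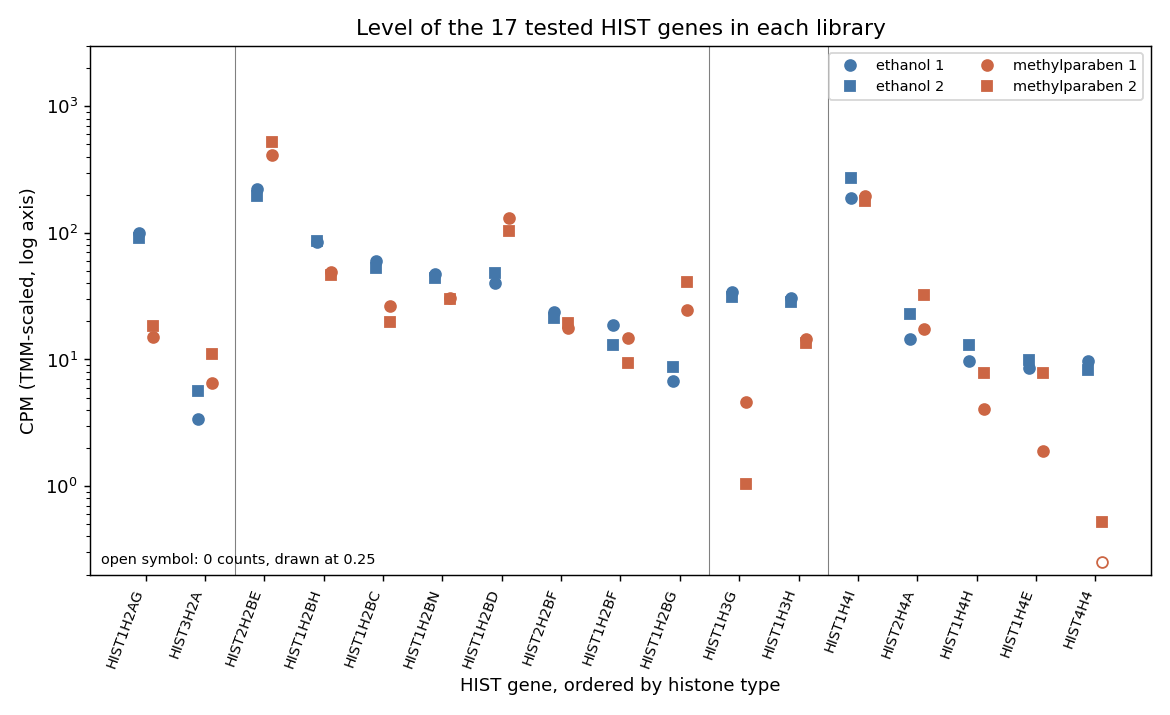
Each point is the level of a tested HIST gene in 1 library, in TMM-scaled CPM on a log axis, with genes ordered by histone type; the open symbol marks 0 counts. Methylparaben points lie above both ethanol points for HIST2H2BE, HIST1H2BD and HIST1H2BG, and HIST4H4 had 0 and 1 counts with methylparaben.

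With all 4 libraries, none of the H1 genes passed the filter on low counts. HIST1H1C, which encodes the linker histone H1.2, had 6, 7, 12 and 55 counts, and 1 library set its level: the summed H1 level was 2.98, 3.03 and 3.27 CPM in ethanol 1, ethanol 2 and methylparaben 1 and 29.3 CPM in methylparaben 2. Its single annotated transcript is coding-only. Without a filter on low counts, HIST1H1C gave a log2 fold change of 2.42 with an edgeR adjusted p of 0.000739, in a setting where 14.2% of 22450 genes passed. It also entered the fits without ethanol 1, without ethanol 2 and without methylparaben 1. Each of these fits kept methylparaben 2, the library that set its level. In the authors' deposited table the adjusted p of HIST1H1C was 0.436. The only other H1 gene with reads was HIST1H1D, with 1 count in ethanol 1 and 1 in methylparaben 2.

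Among H2A genes, HIST1H2AG carried most of the reads and fell. It lies on chromosome 6 (27133042 to 27135291, plus strand) and encodes a replication-dependent H2A also made from other HIST1 genes. Its level was 99.9 and 91.3 CPM with ethanol and 14.96 and 18.3 CPM with methylparaben, from 235, 211, 55 and 35 counts. Both treated libraries were far below both controls. The means were 95.6 ± 6.09 and 16.6 ± 2.37 CPM (SD, n = 2), a log2 fold change of -2.54 ± 0.26 (SE; 5.80-fold lower, edgeR adjusted p = 0.000165). HIST3H2A, an H2A gene of the HIST3 cluster, stood at 3.40 and 5.63 CPM with ethanol and 6.53 and 10.99 CPM with methylparaben, and its log2 fold change of 0.91 ± 0.56 did not pass (edgeR adjusted p = 0.225).

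The summed H2A level followed HIST1H2AG, which held 83.1% of H2A reads. The sum was 112 and 100.4 CPM with ethanol and 24.2 and 31.4 CPM with methylparaben. Without HIST1H2AG it was 12.3 and 9.09 CPM with ethanol and 9.25 and 13.1 CPM with methylparaben, and the groups overlapped. HIST1H2AI had 6 and 4 counts with ethanol and 0 in both treated libraries, at least 3.99-fold lower when 3 counts over the group are taken as the limit, which covers counting error only. Its reads are uncertain, since 45.9% of its single-transcript bases lie in 31-base stretches found in no other gene's annotated transcripts. HIST1H2AE had 3, 2, 8 and 0 counts. Among genes of the HIST2 cluster with fewer than 10 counts, those named after their values were seen were HIST2H2AC (7, 2, 0 and 0 counts), HIST2H2AB (5, 0, 0 and 0) and HIST2H2AA4 (0, 0, 2 and 3); the share of such bases was 71.3% for HIST2H2AC and 8.0% for HIST2H2AA4, so their reads are uncertain too.

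The H2B genes moved in both directions, and they held 6474 of the 10171 HIST reads. HIST2H2BE, the HIST gene with most reads (34.2% of all), rose. It lies on chromosome 1 (149884459 to 149886652, minus strand), and encodes an H2B that differs from the common forms by few residues. Its level was 222 and 197 CPM with ethanol and 410 and 521 CPM with methylparaben, from 521, 456, 1507 and 995 counts. Both treated libraries were above both controls. The means were 209 ± 17.1 and 465 ± 78.3 CPM (SD, n = 2), a log2 fold change of 1.15 ± 0.18 (SE; 2.22-fold higher, edgeR adjusted p = 0.00138).

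HIST1H2BD, on chromosome 6 (26158146 to 26171349, plus strand), also rose, and its reads were counted mostly on a spliced transcript. Its level was 40.4 and 48.5 CPM with ethanol and 131 and 103 CPM with methylparaben, with no overlap of the groups. The log2 fold change was 1.40 ± 0.23 (SE; 2.65-fold higher, edgeR adjusted p = 0.00180). HIST1H2BD-201, spliced and without the stem-loop, held 97.4% of the reads, with 91, 112, 472 and 189 counts. HIST1H2BD-202, which ends near the stem-loop, had 4, 0, 11 and 8 counts. The spliced transcript has 375 single-transcript bases and HIST1H2BD-202 has 82, of which 39 lie past the stem-loop. Since the capture also selects against the tail-less form, these shares do not show which form was more abundant.

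HIST1H2BG rose from a low level. This gene, on chromosome 6 (26215159 to 26216692, minus strand), encodes the same H2B protein as HIST1H2BC, HIST1H2BE, HIST1H2BF and HIST1H2BI. Its level was 6.80 and 8.66 CPM with ethanol and 24.5 and 40.8 CPM with methylparaben, from 16, 20, 90 and 78 counts. Both treated libraries were above both controls, although they differed from each other. The log2 fold change was 2.05 ± 0.40 (SE; 4.15-fold higher, edgeR adjusted p = 0.00381).

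HIST1H2BC, on chromosome 6 (26114873 to 26123926, minus strand), fell although it encodes that same protein. Its level was 60.0 and 53.2 CPM with ethanol and 26.4 and 19.9 CPM with methylparaben, without overlap. The log2 fold change was -1.27 ± 0.28 (SE; 2.42-fold lower, edgeR adjusted p = 0.00656). All its reads were on HIST1H2BC-201, a spliced transcript without the stem-loop. HIST1H2BC-202, which holds the stem-loop, had none. They have 263 and 175 single-transcript bases, and 116 of those of HIST1H2BC-202 lie past the stem-loop. With the capture selecting against the tail-less form, these counts do not show which form was more abundant. HIST1H2BD and HIST1H2BC, both read on spliced forms, thus moved in opposite directions.

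HIST1H2BF, a further gene for that protein, stood at 18.7 and 13.0 CPM with ethanol and 14.7 and 9.42 CPM with methylparaben. These groups overlapped, and the log2 fold change of -0.36 ± 0.41 did not pass (edgeR adjusted p = 0.518). HIST1H2BE had 1 and 1 counts with ethanol and 17 and 2 with methylparaben, a ratio of 7.93 after scaling for library size (exact 95% interval 1.91 to 70.2, counting error only) that rests on methylparaben 1.

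HIST1H2BH, on chromosome 6 (26251651 to 26253710, plus strand), fell by less. Its level was 84.2 and 87.0 CPM with ethanol and 49.2 and 46.6 CPM with methylparaben, close within each group and without overlap. The log2 fold change was -0.83 ± 0.22 (SE; 1.78-fold lower, edgeR adjusted p = 0.0158). The call was lost without ethanol 1 (edgeR adjusted p = 0.0683) or without ethanol 2 (0.0841), while the log2 fold change stayed between -0.88 and -0.76 over the 4 libraries left out in turn.

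The 2 other tested H2B genes did not pass. HIST1H2BN stood at 47.2 and 43.7 CPM with ethanol and 30.7 and 29.8 CPM with methylparaben; its log2 fold change was -0.58 ± 0.26 (edgeR adjusted p = 0.106). Its transcripts HIST1H2BN-203 and HIST1H2BN-204 held 71.2% and 28.8% of its reads. They have 3505 and 809 single-transcript bases, so these shares do not show which form was more abundant. The first had 54, 86, 92 and 40 counts and the second 57, 15, 21 and 17, so ethanol 1 had the most of the second. HIST2H2BF stood at 23.8 and 21.2 CPM with ethanol and 17.7 and 19.4 CPM with methylparaben, with a log2 fold change of -0.29 ± 0.32 (edgeR adjusted p = 0.517).

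Of the untested H2B genes, HIST1H2BK had 1, 1, 16 and 8 counts, a scaled ratio of 10.01 (exact 95% interval 2.49 to 87.4, counting error only). Only 36.2% of its single-transcript bases lie in 31-base stretches of its own, so its reads are uncertain; without a filter on low counts its edgeR adjusted p was 0.0383. HIST1H2BJ had 8, 10, 13 and 6 counts and HIST3H2BB 5, 2, 3 and 6, and the counts of the groups overlapped. The summed H2B level was 509 and 479 CPM with ethanol and 718 and 801 CPM with methylparaben. Without HIST2H2BE it was 287 and 282 CPM with ethanol and 308 and 281 CPM with methylparaben, and the groups overlapped. HIST2H2BE took 43.5% and 41.2% of H2B reads with ethanol and 57.1% and 65.0% with methylparaben.

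**Figure D3:**
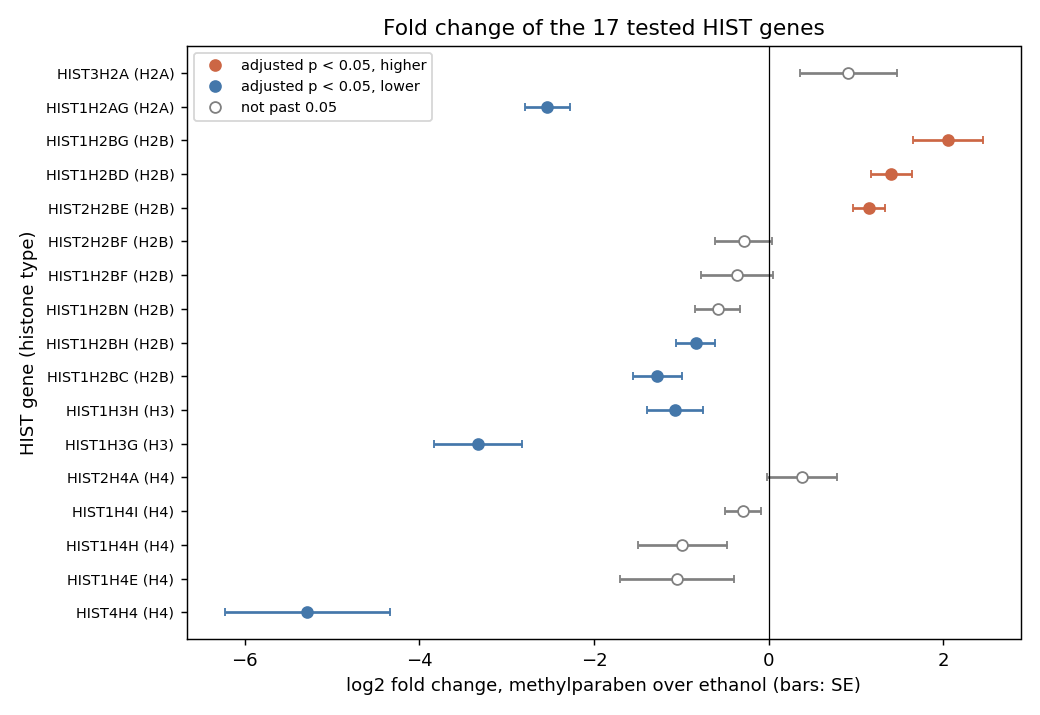
Points are log2 fold changes of the 17 tested HIST genes, methylparaben over ethanol, with SE bars, filled where the adjusted p was under 0.05. The 3 filled points above 0 are H2B genes, and the 6 below 0 include H2A, H2B, H3 and H4 genes.

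Both tested H3 genes fell, and both encode the replication-dependent H3.1. HIST1H3G, on chromosome 6 (26269405 to 26271815, minus strand), stood at 34.0 and 31.2 CPM with ethanol and 4.63 and 1.05 CPM with methylparaben, from 80, 72, 17 and 2 counts. Both treated libraries were far below the controls, methylparaben 2 the more so. The log2 fold change was -3.33 ± 0.50 (SE; 10.03-fold lower, edgeR adjusted p = 0.00110). It was -4.89 without methylparaben 1 and -2.77 without methylparaben 2, so the size of the fall depends on which treated library is kept.

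HIST1H3H, on chromosome 6 (27810064 to 27811300, plus strand), stood at 30.6 and 28.6 CPM with ethanol and 14.4 and 13.6 CPM with methylparaben. The libraries of each group were close and the groups did not overlap. The log2 fold change was -1.07 ± 0.32 (SE; 2.102-fold lower, edgeR adjusted p = 0.0251), and the call was lost without ethanol 1 (0.107), without ethanol 2 (0.0733) and with DESeq2 (adjusted p = 0.0767). HIST1H3B, a further H3.1 gene, was not tested and had 5, 5, 0 and 1 counts, a scaled methylparaben to ethanol ratio of 0.0835 (exact 95% interval 0.00192 to 0.587, counting error only). The summed H3 level was 66.8 and 62.3 CPM with ethanol and 19.3 and 16.7 CPM with methylparaben. HIST1H3G made up 51.0% and 50% of H3 reads with ethanol and 23.9% and 6.25% with methylparaben.

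The 5 tested H4 genes encode the same H4 protein, and of these only HIST4H4 passed. HIST4H4, alone on chromosome 12 (14767999 to 14771131, minus strand), had 23 and 19 counts with ethanol and 0 and 1 with methylparaben, or 9.78, 8.22, 0 and 0.523 CPM. Methylparaben was thus near the lower limit of counting. The ratio of methylparaben to ethanol was 0.0199 (exact 95% interval 0.000492 to 0.117, counting error only), and the edgeR adjusted p was 0.00255. Without ethanol 1 it was 0.0526. The fitted log2 fold change, -5.28 ± 0.94, depends on the prior count and ran from -7.64 without methylparaben 2 to -3.97 without methylparaben 1. Of its reads, 97.7% were on HIST4H4-201, annotated for nonsense-mediated decay, which also has 882 of the gene's 1271 single-transcript bases.

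HIST1H4I, the most-read H4 gene, on chromosome 6 (27138588 to 27139881, plus strand), stood at 188 and 274 CPM with ethanol and 195 and 180.0 CPM with methylparaben. Ethanol 2 was the highest and the groups overlapped, and the log2 fold change of -0.30 ± 0.21 did not pass (edgeR adjusted p = 0.287). Without ethanol 2 it was 0.014. HIST1H4I held 83.2% of H4 reads, and the summed H4 level was 232 and 332 CPM with ethanol and 221 and 231 CPM with methylparaben.

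The 3 other tested H4 genes did not pass. For HIST1H4H and HIST2H4A nearly all single-transcript bases belong to transcripts annotated for nonsense-mediated decay, so the counts say nothing of which form was made. HIST1H4H stood at 9.78 and 13.0 CPM with ethanol and 4.08 and 7.85 CPM with methylparaben (log2 fold change -0.99 ± 0.51, edgeR adjusted p = 0.155). HIST1H4E stood at 8.51 and 9.95 CPM with ethanol and 1.90 and 7.85 CPM with methylparaben (log2 fold change -1.05 ± 0.66, edgeR adjusted p = 0.235). Neither had overlapping groups, and the treated libraries of HIST1H4E were far apart: without methylparaben 2 its log2 fold change was -2.22 (edgeR adjusted p = 0.0375). HIST2H4A stood at 14.5 and 22.9 CPM with ethanol and 17.4 and 32.4 CPM with methylparaben, overlapping (log2 fold change 0.39 ± 0.40, edgeR adjusted p = 0.484, and -0.070 without methylparaben 2). HIST2H4A and HIST2H4B are near-identical copies, and the single-transcript bases of the HIST2H4A transcript that was read most hold no 31-base stretch of its own, so their split is uncertain. Their summed counts were 39, 61, 71 and 65, of which HIST2H4B had 5, 8, 7 and 3.

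**Figure D4:**
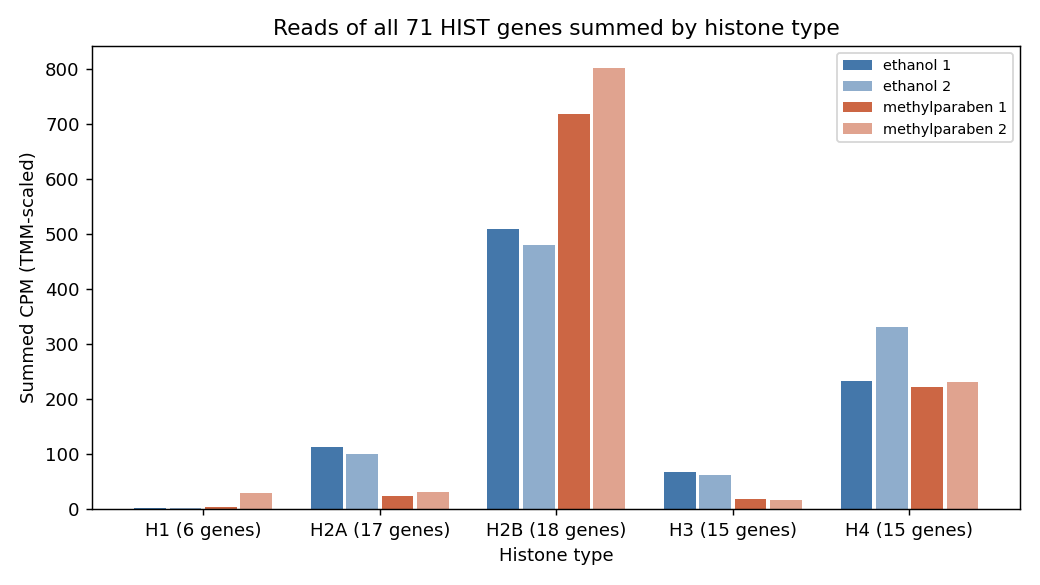
Bars are TMM-scaled CPM summed over all HIST genes of a type, 1 bar per library, with the axis from 0. H2B bars are higher with methylparaben (718 and 801 against 509 and 479), H2A and H3 bars are lower, and the H1 bar stands out in methylparaben 2 alone (29.3).

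By cluster, HIST1 genes summed to 641 and 716 CPM with ethanol and 531 and 518 CPM with methylparaben, and HIST2 genes to 267 and 246 CPM with ethanol and 448 and 577 CPM with methylparaben. HIST2H2BE made up 88.2% of HIST2 reads, so the second difference is largely that of 1 gene. The HIST1 sum holds 2 genes that rose and 5 that fell. Over all 71 genes the sum was 923 and 976 CPM with ethanol and 986 and 1109 CPM with methylparaben, a ratio of means of 1.10. HIST2H2BE held 34.2% of these reads, with 222 and 197 CPM with ethanol and 410 and 521 CPM with methylparaben. The total thus includes the rise of this gene and does not show how the others moved. The HIST1 sum, which does not hold HIST2H2BE, was lower in both treated libraries than in both controls. These sums are descriptions and were not tested.

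Levels of different genes were compared per kb of single-transcript bases. With ethanol, the 4 highest means were those of HIST1H4I (178 CPM per kb; 145 and 211 in the libraries), HIST1H2BC (129; 137 and 122), HIST1H2BD (97.2; 88.4 and 106) and HIST2H2BE (95.5; 101 and 90.0). The order of the first pair turned when only transcripts that held reads were counted, a choice made after seeing the data, since HIST1H2BC then had 263 such bases in place of 438 and a mean of 215 CPM per kb (228 and 202). HIST1H2BD and HIST2H2BE did not differ beyond their spread. HIST1H2AG (42.5 CPM per kb) and HIST1H2BH (41.6) came next, and the other 11 tested genes ran from 5.04 to 24.0 CPM per kb. With methylparaben the order was HIST1H2BD (257 CPM per kb; 288 and 226), HIST2H2BE (212; 187 and 237), HIST1H4I (145; 151 and 139) and HIST1H2BC (52.8; 60.3 and 45.4), and the ranges of the first pair overlapped; over transcripts that held reads HIST1H2BC was at 88.0 CPM per kb, in the same place. HIST1H2AG was then at 7.40 CPM per kb.

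In the authors' deposited table, 10 of the 43 HIST transcripts with reads had an adjusted p under 0.05, where 11.1% of all 40279 transcripts with reads did. The authors' deposited table lists adjusted p-values of 2.4e-08 for HIST1H3G, 1.271e-06 for HIST1H2BD-201, 1.883e-06 for HIST4H4-201 and 0.0184 for HIST1H2BH. HIST1H2AI (0.00301) and HIST2H2AC (0.0158), which were not tested here, are also under 0.05 in the authors' deposited table, and HIST1H3H is at 0.0640 there.

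Promoter sequences were looked at because H2A and H2B genes lie head to head in pairs around a shared promoter. Sequences from 250 bases before to 50 after the start, from RefSeq on GRCh38.p14, matched 57 of the 71 genes. The octamer ATTTGCAT, searched on both strands, is known to be bound by POU2F1. It was found in 11 of 14 H2A promoters (78.6%) and 13 of 16 H2B promoters (81.2%), and in none of 6 H1, 8 H3 or 13 H4 promoters, against 1.77% of all 35116 promoters in the table. CCAAT occurred in 47 of 57 HIST promoters (82.5%; all promoters 34.61%) and TATAAA in 37 (64.9%; all promoters 11.53%), both searched on both strands, and no searched motif contains another. A match is a description of letters and not a bound site.

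The windows of 3 pairs with reads from both genes are given below, each read along the strand of the gene first named, with the octamer in capitals on either strand.
HIST2H2BE and HIST2H2AC: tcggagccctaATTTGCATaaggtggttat
HIST1H2BG and HIST1H2AE: ttgaattctttATTTGCATgaaaggcctat
HIST1H2AG and HIST1H2BJ: tagaatcgcttATGCAAATaaggtgaagag
The HIST2H2BE window lies at chr1:149886710-149886739 on the minus strand, in the 322 bases between the genes; HIST2H2BE rose while HIST2H2AC had 7, 2, 0 and 0 counts. The HIST1H2BG window lies at chr6:26216718-26216747 on the minus strand, in the 282 bases between the genes; HIST1H2BG rose while HIST1H2AE had 3, 2, 8 and 0 counts. The HIST1H2AG window lies at chr6:27132824-27132853 on the plus strand, in the 291 bases between the genes; HIST1H2AG fell while HIST1H2BJ had 8, 10, 13 and 6 counts. Of 8 pairs that share such a window, these 3 had reads from both genes, HIST1H2BC with HIST1H2AC and HIST1H2BF with HIST1H2AD had reads from the H2B gene and none from the H2A gene, and 3 had no reads. HIST1H2AC and HIST1H2AD have only 14 and 8 single-transcript bases, so their lack of reads says nothing of their levels. In none of the 8 pairs were both genes tested, so whether partners differed in their response was not tested.

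Of the genes that supply histone mRNA, NPAT and CDK2 were among those that fell. Of 27 listed genes of histone transcription, 3' end processing and histone mRNA decay 14 were tested, of which 5 fell and 1 rose, where 18.4% of all tested genes fell and 18.5% rose, with a median log2 fold change of -0.39 against 0.03 for all tested genes. NPAT, the activator of histone transcription, stood at 46.4 and 58.4 CPM with ethanol and 21.2 and 20.4 CPM with methylparaben (log2 fold change -1.33 ± 0.28, edgeR adjusted p = 0.00562). CDK2, whose complex with cyclin E phosphorylates NPAT, fell with a log2 fold change of -2.09 ± 0.44 (edgeR adjusted p = 0.00536). CPSF2, a subunit of the cleavage complex, fell by 0.74 on the log2 scale (edgeR adjusted p = 0.00970), and TUT7, a uridylyltransferase, rose by 2.06 (0.0111) with 90.6% of its reads on a non-coding transcript. SLBP was listed at 0 counts in all 4 libraries, so nothing can be said of its level.

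Histone chaperones and nuclear import factors had 19 of 27 genes tested, of which 6 fell and 1 rose (median -0.11). These 7 of 19 are close to the 36.9% called among all tested genes. ASF1A, an H3-H4 chaperone, fell by 1.35 on the log2 scale (edgeR adjusted p = 0.000511), and RBBP4, a subunit of the CAF-1 chaperone, by 1.24 (0.00192). MMS22L, which acts at stalled forks with TONSL, fell by 1.40 (edgeR adjusted p = 0.00207), and NPM1, nucleophosmin, by 1.02 (0.00323). Of 8 tested replication-independent histone genes, which are polyadenylated, 1 rose and 2 fell (median 0.32), which is also close to that 36.9%. H1F0, the linker histone of slowly dividing cells, stood at 251 and 274 CPM with ethanol and 501 and 648 CPM with methylparaben (log2 fold change 1.13 ± 0.18, edgeR adjusted p = 0.00154), while H2AFV, an H2A.Z form, fell by 2.06 on the log2 scale (edgeR adjusted p = 7.37e-05). H2AFJ fell by 1.71 (edgeR adjusted p = 0.000220), with all its reads on transcripts annotated for nonsense-mediated decay. H3F3B, a gene for H3.3, had a log2 fold change of -0.13 ± 0.17 and did not pass (edgeR adjusted p = 0.595).

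Of 24 listed S-phase genes, 8 were tested, of which 5 fell (GINS1, GINS2, FEN1 and MCM6 among them) and none rose, where 18.4% of all tested genes fell. The median log2 fold change of the 8 was -1.78. PCNA, MCM2 and RRM1 were among 6 of the 24 listed at 0 counts in all libraries, so nothing can be said of their levels. The GINS helicase subunits GINS1 and GINS2 fell by 2.1015 (edgeR adjusted p = 0.000669) and 1.78 (0.00371) on the log2 scale, and the flap endonuclease FEN1 fell by 1.78 (0.000569). The summed level of the list was 876 and 876 CPM with ethanol and 347 and 360.1 CPM with methylparaben. Over the same libraries 6 HIST genes fell, 3 H2B genes rose and the sum of all HIST genes had a ratio of means of 1.10. That sum includes the rise of HIST2H2BE, which held 34.2% of its reads. The part of a change in S-phase cells in the HIST results was not tested.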

How the data were processed

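Per the file headers, the deposited tables give for each transcript the authors' raw read count, FPKM, log2 of FPKM plus 1, and a p-value with an adjusted p-value of their own comparison. The sources used here name no aligner or counter; the submitters' processing notes name GRCh38, DESeq2, limma and edgeR. All 206601 transcripts matched GENCODE release 29 at equal coordinates. HIST transcripts were joined by ID and counts summed per gene, as the files hold transcripts. Genes passing filterByExpr (minimum count 10, minimum total 15) were TMM-scaled and tested in R 4.3.3 with edgeR 4.0.16 (glmQLFit and glmQLFTest), adjusted by Benjamini-Hochberg over 8055 genes (threshold 0.05). The script was tested on simulated data. Alternatives were RLE, upper quartile and library-size scaling, DESeq2 1.42.0, limma 3.58.1 (voom, and log2 FPKM with pseudocounts 1 and 0.1), the replicate block, filtering dropped or raised to 5 CPM in 2 libraries, transcripts, and each library left out. Every tested HIST gene is named, untested ones from 10 counts on, SLBP and NPAT, and called list genes of smallest p; some genes of the lists are not reported here. Members and lists were chosen with earlier results of these data known. Group limits use 3 counts; ratios have exact binomial 95% intervals. Neither covers more than counting error. Depth was 2068486 to 3760982 counts a library, which limits low genes most.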

Additional observations from a re-analysis of the deposited data

How the results depend on the processing

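With 2 libraries a group, an exact permutation test cannot go below p = 0.333, so all calls rest on spread shared across genes. The 9 HIST calls were 8 with DESeq2 and 11 with no filter, and 6 to 10 with a library left out; HIST1H2AG, HIST1H2BC, HIST1H2BD, HIST1H2BG, HIST1H3G and HIST2H2BE were called in the same direction under every alternative listed above. Calls over all genes were 2976, against 1899 with limma on log2(FPKM + 0.1) and 1677 to 3095 with a library left out, the lowest without ethanol 1. With library size only, 1336 were higher and 1681 lower, against 1491 and 1485. With the replicate number as a block, 2488 genes and 9 HIST genes were called; same-numbered libraries deviated with a correlation of -0.15 over 8055 genes, so the numbers do not show pairing, and a crossed pairing, added after seeing the data, gave 3292 and 9. Of 255 single-gene values, 246 kept direction and side of the threshold. With a library left out, the log2 fold change of HIST1H4I ran from -0.56 to 0.014, turning without ethanol 2, and that of HIST2H4A from -0.070 to 0.79, turning without methylparaben 2, neither past the threshold in either fit. The cause was not tested.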
